A study of Mus musculus with 7 samples.

Results

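The Ms4a gene cluster is a row of related genes on mouse chromosome 19, and 8 of its genes were followed here: Ms4a6b, Ms4a6c, Ms4a6d, Ms4a4a, Ms4a4b, Ms4a4c, Ms4a4d and Ms4a7. They are neighbours of one family, and were chosen by measured values of these same libraries: the high Ms4a6c count and the lower Ms4a6b level in tumor-bearing mice. The count tables held gene IDs for 7 of the 8 among 23725 gene IDs in all; Ms4a4a was not analysed here. The libraries were made from GFP-positive osteoblasts of male C57BL/6 mice carrying the Cre-dependent alleles of a lung tumor model, p53Flox/Flox among them, and the Ocn-GFP reporter, in which the osteocalcin promoter marks osteoblasts with green fluorescent protein. The 4 tumor-bearing mice had received adenovirus with Cre recombinase (AdCre) into the trachea, which recombines these alleles in the lung and deletes p53 there, and were taken 14 weeks later. The 3 tumor-free mice carried the same alleles and reporter and were matched for age, sex and litter; whether anything was given into their airways is not stated. The age was 31 weeks except in 1 mouse per group (replicate 4 with a tumor, replicate 3 without), which was 23 weeks. From each mouse 2000 cells negative for CD45, CD31 and the erythroid antigen were sorted from digested bone pooled with lineage-depleted marrow, and gave 1 library of transcript 3′ ends.

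MS4A proteins are small membrane proteins that cross the membrane several times and often sit beside immune receptors, whose signals they tune. The founding members are CD20 on B cells, encoded by Ms4a1, and the beta chain of the high-affinity IgE receptor on mast cells, encoded by Ms4a2. The members followed here are known mainly from monocytes, macrophages and T cells, and have no established part in bone formation.

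The 7 members with a gene ID span 284 kb, from Ms4a7 (start 11321039) to Ms4a6d (end 11604804) on chromosome 19 of mm10. Positions are those of RefSeq gene models of GRCm38.p6, the same assembly. Ms4a6c lies at 11469353 to 11487182 and Ms4a6b at 11518559 to 11530403, both on the plus strand, with the gene model Gm8369 between them. Ms4a4c (11404717 to 11427246) and Ms4a4b (11443558 to 11463549) lie before Ms4a6c, and Ms4a4d (11536794 to 11558466) and Ms4a6d (11586606 to 11604804) after Ms4a6b. The Entrez gene IDs are 73656 for Ms4a6c, 69774 for Ms4a6b, 68774 for Ms4a6d, 64380 for Ms4a4c, 60361 for Ms4a4b, 66607 for Ms4a4d and 109225 for Ms4a7. The sequences of the 3 Ms4a6 genes are shown first, because their counts differed most although the genes are related, with 67.4% to 79.9% coding identity. The lines give the first 120 coding bases of the longest coding GENCODE vM21 transcript of each gene, 5′ to 3′, with capitals where a base differs from Ms4a6c.
Ms4a6c: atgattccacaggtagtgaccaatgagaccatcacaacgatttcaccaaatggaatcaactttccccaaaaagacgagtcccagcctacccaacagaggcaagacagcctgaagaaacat
Ms4a6b: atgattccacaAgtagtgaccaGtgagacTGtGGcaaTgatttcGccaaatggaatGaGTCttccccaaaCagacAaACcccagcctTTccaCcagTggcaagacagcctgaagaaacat
Ms4a6d: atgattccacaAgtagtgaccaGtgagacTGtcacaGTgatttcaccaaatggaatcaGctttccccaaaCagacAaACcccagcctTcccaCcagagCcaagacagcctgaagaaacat
In this stretch 20 bases of Ms4a6b and 14 of Ms4a6d differed from Ms4a6c. Over the whole coding sequence, identity was taken as the share of all alignment columns, gaps included, that held the same base. The Ms4a6c coding sequence had 654 bases, against 735 for Ms4a6b and 744 for Ms4a6d, so gaps lower its values. Ms4a6b was 74.3% identical to Ms4a6c and 79.9% to Ms4a6d, and Ms4a6c was 67.4% identical to Ms4a6d. Ms4a4b, Ms4a4c and Ms4a4d formed a second group, with 91.8% identity between Ms4a4b and Ms4a4c, 85.5% between Ms4a4c and Ms4a4d and 83.3% between Ms4a4b and Ms4a4d. Ms4a4a was farther from them, at 58.1% to 60.1%. Ms4a7 had 42.7% to 48.0% identity to each other member. Its coding sequence was the longest, at 804 bases, so gaps lower its values too. Between the Ms4a6 and the Ms4a4 genes identity was 47.2% to 51.7%, little above that of Ms4a7.

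The copies also extended upstream of Ms4a6c and Ms4a6b. The next lines give the 250 bases before the RefSeq transcript start of each (GRCm38.p6, plus strand, chr19:11469118-11469367 for Ms4a6c and chr19:11518309-11518558 for Ms4a6b). Capitals mark the exact runs of at least 15 bases that both windows hold in the same order; they are shown because the pair shares this sequence while its counts differed 10.8- to 150-fold within a library.
Ms4a6c: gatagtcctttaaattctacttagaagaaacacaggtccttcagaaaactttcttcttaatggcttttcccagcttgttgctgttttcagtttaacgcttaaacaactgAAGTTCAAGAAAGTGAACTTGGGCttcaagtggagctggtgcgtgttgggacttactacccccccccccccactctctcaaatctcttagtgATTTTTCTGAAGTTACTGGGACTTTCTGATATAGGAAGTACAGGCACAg
Ms4a6b: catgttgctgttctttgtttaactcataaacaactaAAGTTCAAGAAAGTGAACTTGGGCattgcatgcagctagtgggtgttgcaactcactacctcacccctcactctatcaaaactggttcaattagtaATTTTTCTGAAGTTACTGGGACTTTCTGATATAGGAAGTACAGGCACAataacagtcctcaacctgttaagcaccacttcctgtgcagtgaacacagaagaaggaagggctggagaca
The 2 runs were 24 and 48 bases long and made up 28.8% of each window. The longer run began 49 bases before the transcript start used for Ms4a6c and 118 bases before that of Ms4a6b. The shared block thus sits at a different distance from these starts, which are not alike. The Ms4a6c window runs past the start of the RefSeq gene at 11469353, while the Ms4a6b window ends just before its gene at 11518559. Promoter sequences were listed for 7 of the 8 members; Ms4a6d had none.

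Ms4a6c, a gene best known from monocytes and macrophages, held nearly all counts of the cluster. Over the 7 libraries the members together had 1477 counts, of which Ms4a6c had 1362, or 92.2%. Per library its part of the members' counts lay between 88.8% and 96.8%. No other member reached 20 counts in any library.

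Ms4a6c had 150, 166, 244 and 223 counts in tumor-bearing replicates 1 to 4 and 165, 208 and 206 in tumor-free replicates 1 to 3. Every library was thus far above 0, and the groups overlapped. These counts were between 0.144% and 0.195% of a library; for the shallowest library the exact binomial 95% interval was 0.165% to 0.228%, and for the deepest 0.126% to 0.163%. Such intervals cover counting error only. Among all genes Ms4a6c ranked between 15th and 41st by count in every library.

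Ms4a6b, described in T cells and macrophages, came next by mean count. Tumor-bearing replicates 1 to 4 had 1, 4, 9 and 5 counts, and tumor-free replicates 1 to 3 had 9, 18 and 19 counts. Ms4a4c, which is found in myeloid cells and responds to interferon, had 3, 7, 11 and 5 counts in tumor-bearing and 3, 2 and 6 counts in tumor-free replicates. Both genes had counts in all 7 libraries, but at levels where single counts weigh on every ratio.

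The remaining members were at or near the limit of detection. Ms4a4b, a T cell gene, had 0 to 2 counts per library and 7 in all. Ms4a4d had 0 to 3 counts and 5 in all, 3 of them in tumor-free replicate 2. Ms4a6d, a macrophage gene, had 1 count in tumor-bearing replicate 2 and 0 elsewhere, although its coding sequence is 79.9% identical to that of Ms4a6b. Ms4a7, a gene of mature tissue macrophages, had 0 counts in all 7 libraries. A count of 0 allows up to 3 counts, or 16.9 CPM (TMM-scaled counts relative to the library total) in the deepest library and 41.1 CPM in the shallowest.

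**Figure D1:**
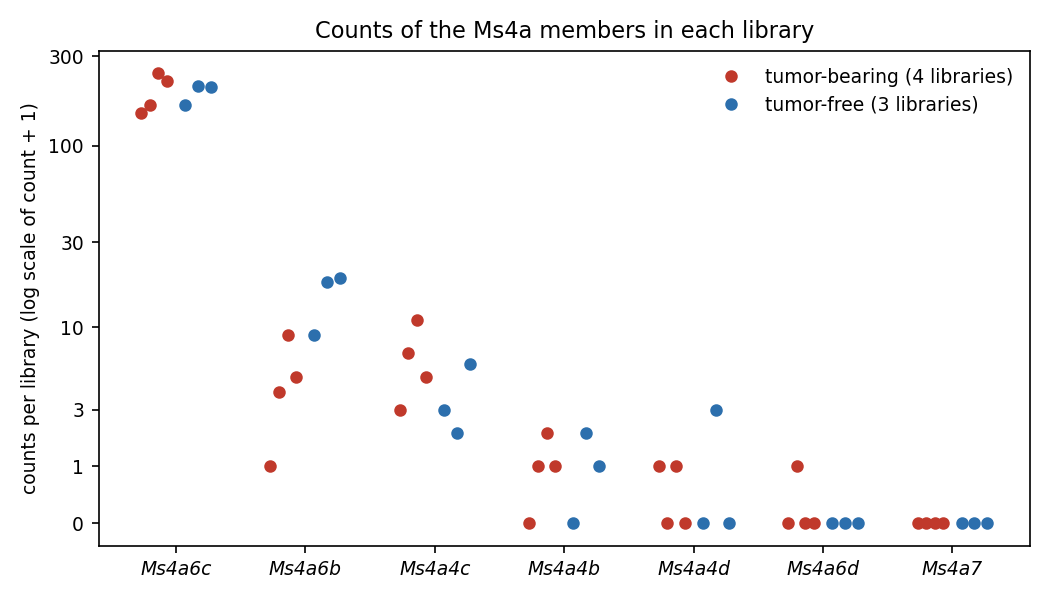
Counts of each member in each library, on a log axis of count + 1 (points: libraries, red tumor-bearing, blue tumor-free). Ms4a6c lies between 150 and 244 counts in all 7 libraries, no other member exceeds 19, and Ms4a7 is at 0 throughout.

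By mean level the order was Ms4a6c (1675 ± 216 CPM, SD, n = 7), Ms4a6b (76.3 ± 56.9 CPM), Ms4a4c (43.6 ± 19.4 CPM), Ms4a4b (7.66 ± 6.14 CPM), Ms4a4d (6.40 ± 9.84 CPM), Ms4a6d (1.50 ± 3.97 CPM) and Ms4a7 (0 CPM). Only the first step in this order was clear of the spread: Ms4a6c exceeded Ms4a6b in 7 of 7 libraries and their count ranges did not overlap. Ms4a6b exceeded Ms4a4c in 3 libraries, tied in 1 and was lower in 3. Ms4a4c exceeded Ms4a4b in 6 libraries and tied in 1, but the count ranges touched. The ranges of each further pair of neighbours overlapped. In a 3′-end library a transcript should give counts in proportion to its number and not its length. For highly counted genes such as Ms4a6c this may not hold, since their counts grew less than the library total (below). The mean counts were also divided by the length of the longest coding GENCODE transcript. They were 106 per kb for Ms4a6c, 3.46 for Ms4a6b, 3.07 for Ms4a4c, 0.472 for Ms4a4d, 0.211 for Ms4a4b and 0.101 for Ms4a6d. Only Ms4a4b and Ms4a4d changed places.

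The difference between neighbours is sharp along the chromosome. Gm8369, between Ms4a6c and Ms4a6b, had 2 to 11 counts per library. The 5 nearest genes with an ID on the near side of Ms4a7 (Ms4a19, Ms4a13, 4930526L06Rik, Ms4a1 and Ms4a5) had 0 to 8 counts, and the 5 beyond Ms4a6d (Ms4a2, Ms4a3, Oosp2, Oosp1 and Oosp3) 0 to 2 counts.

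**Figure D2:**
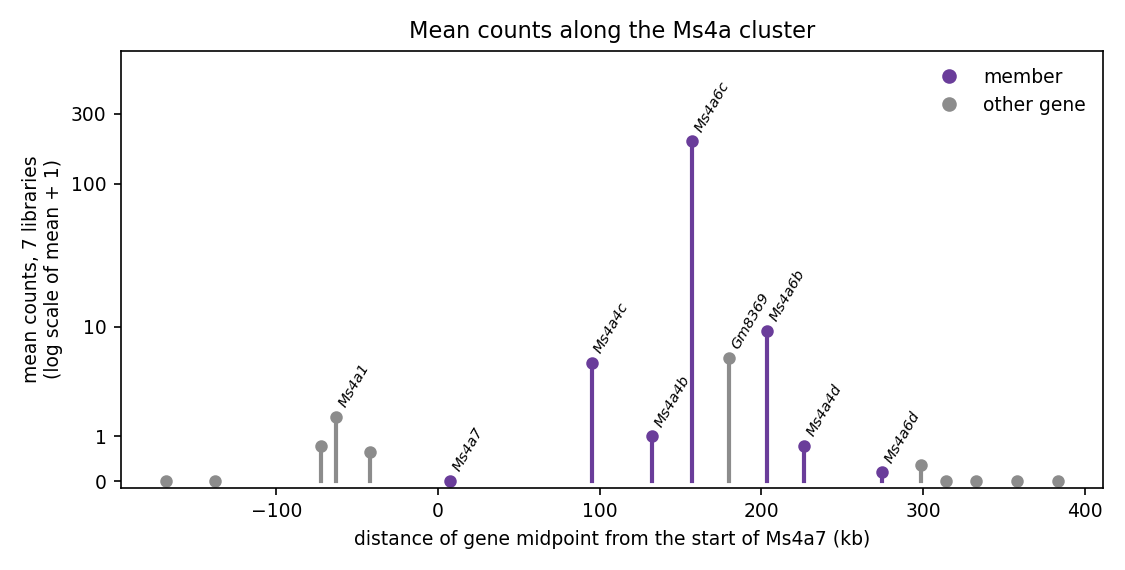
Mean count over the 7 libraries (log axis of mean + 1) against the distance of each gene's midpoint from the start of Ms4a7, in kb (purple: members; grey: other genes with an ID). Ms4a6c stands at a mean of 195 counts, and each other gene in the window lies below 10.

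Of the other MS4A family genes, with the related Tmem176a and Tmem176b, 13 of 15 had an ID. Ms4a15 had 12 to 33 counts and was the only family gene besides Ms4a6c and Ms4a6b to pass the low count filter of the test below. Tmem176b, which lies on chromosome 6, had 1 to 13 counts. The other 11 had at most 8 counts in a library, among them Ms4a1 with 0 to 8, 8 of its 12 counts being in tumor-bearing replicate 4.

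Whether reads of one copy could be counted for another depends on the transcript ends, where this method reads. The ends compared here are those of the longest coding GENCODE vM21 transcripts, and gene models differ. GENCODE ends Ms4a6c at 11482192, Ms4a6b at 11531256 and Ms4a4b at 11467055. RefSeq ends these genes at 11487182, 11530403 and 11463549. Which end the counted reads came from is not known here. No stretch of 35 bases in the last 500 bases before the GENCODE end of Ms4a6b was found in Ms4a6c or Ms4a6d. Sequence before the RefSeq ends was not compared. RefSeq ends Ms4a6b earlier than GENCODE, so its end may lie nearer to the shared stretches. In the last 500 bases of Ms4a6c, 65 positions (13.9%) began a stretch of 35 bases also present in Ms4a6b, at least 1328 bases from the Ms4a6b end. For Ms4a4c and Ms4a4b the corresponding figure was 85 positions (18.2%) of the Ms4a4c end. No source used here says how the authors treated reads that match several genes, so counts split between Ms4a6c and Ms4a6b, or between Ms4a4c and Ms4a4b, are uncertain.

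Repeated and A-rich sequence within the same GENCODE transcripts was also counted, with distances taken from their GENCODE ends. Ms4a6c held 40 positions that begin a 25-base sequence found in transcripts of at least 50 genes, 423 to 584 bases from its end. Ms4a4c held 11, Ms4a4b 2, and Ms4a6b, Ms4a6d, Ms4a4a, Ms4a4d and Ms4a7 held 0. Of 55341 gene symbols, 24.7% had at least 1 such position in their longest transcript. Ms4a6c also had 11 windows with at least 11 A in 12 bases before its last 100 bases, against 9 in Ms4a6b, 8 in Ms4a4b and 0 in the other members; 10.8% of symbols had such a window. The nearest lay 379 bases from the end of Ms4a6c and 1054 bases from the end of Ms4a6b. GENCODE places the non-coding gene BE692007 on the opposite strand across Ms4a6c (11470166 to 11484578), with 1088 bases of exon in common. Ms4a6b shares 19 bases of exon with the opposite-strand Gm19261 and Ms4a4c 28 bases with Gm5692. Whether strand was used in counting is unknown here, so reads of each pair cannot be told apart where they overlap. The part of these features in the Ms4a6c count was not tested.

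The Ms4a6c count grew less than the library did. From the shallowest library (77127 counts, tumor-bearing replicate 1) to the deepest (169774 counts, tumor-bearing replicate 3) the totals rose 2.20-fold and Ms4a6c 1.63-fold, from 150 to 244 counts. Its CPM was 2057 in the shallowest and 1371 in the deepest. Highly counted genes in general showed the same compression: the summed counts of the 43 genes with a mean of at least 150 counts differed 1.62-fold between these 2 libraries, and those of the 1973 genes with a mean of 5 to 20 counts 2.60-fold. The highest count of any gene was 282 to 303 in each library.

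Across the 7 libraries, where any gene with a constant part of the library would rise with its total, the Ms4a6c count followed the total count (Pearson r = 0.97, exact permutation p = 0.0004, two-sided, adjusted over 4 relations 0.0016; Spearman rho = 0.96, exact permutation p = 0.0028, adjusted 0.0112). Without the 2 libraries whose totals were farthest from the median, r was 0.96. The CPM of Ms4a6c ran the other way (r = -0.88, exact permutation p = 0.0125, adjusted 0.025; rho = -0.75, exact permutation p = 0.0663, adjusted 0.1326). That relation rested on the shallowest and the deepest library, since r was -0.51 without them. CPM has the total in its denominator, so the count and CPM relations are not independent. For Ms4a6b neither the count (r = 0.30, exact permutation p = 0.5155, adjusted 0.6873; rho = 0.50, exact permutation p = 0.2579) nor the CPM (r = 0.11, exact permutation p = 0.8091; rho = 0.29, exact permutation p = 0.5560) showed a relation with depth past the threshold. Within the 5 libraries of 31-week mice, given as a description, r was 0.98 for the count and -0.87 for the CPM of Ms4a6c, and 0.50 and 0.26 for Ms4a6b.

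**Figure D3:**
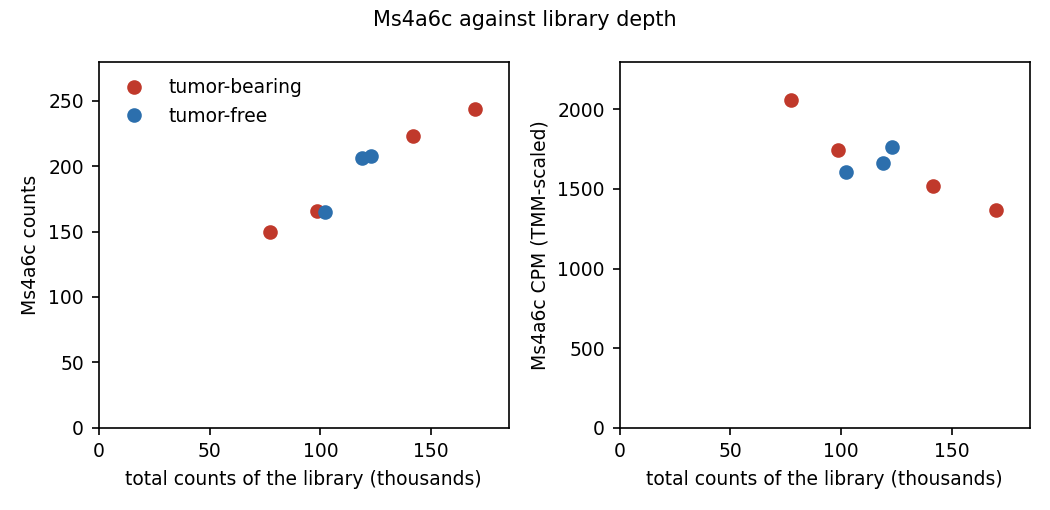
Ms4a6c counts (left) and CPM (right) against the total counts of each library (points: libraries, red tumor-bearing, blue tumor-free). Counts rise from 150 to 244 with depth while CPM goes down from 2057 to 1371.

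Between tumor-bearing and tumor-free mice, Ms4a6b was lower with a tumor and the Ms4a6c groups overlapped. The Ms4a6c counts lie in the range where counts grew less than depth, so a difference in its level could be understated. These values are given as a description, because the members were chosen with this comparison known. With age as a factor, the quasi-likelihood test of edgeR called 0 of 2495 genes (0%) at an adjusted p under 0.05, with 25 higher and 42 lower at an unadjusted p under 0.05. DESeq2 also called 0 (13 and 36 unadjusted), as did limma voom (33 and 38). The low count filter passed 2 of the 7 members, Ms4a6c and Ms4a6b. The count of a gene in sorted bulk cells cannot tell fewer cells with the transcript from less transcript per cell.

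In CPM the tumor-bearing replicates 1 to 4 had 13.7, 42.0, 50.6 and 34.1 of Ms4a6b, and the tumor-free replicates 1 to 3 had 87.5, 153 and 153. All 4 tumor-bearing libraries lay below all 3 tumor-free ones. Of the 2495 genes tested 1.32% showed that arrangement and 2.2% the opposite one; nothing is read from this for a gene chosen on the same values. The group means were 35.1 ± 15.8 CPM (SD, n = 4) and 131 ± 37.8 CPM (SD, n = 3). The log2 fold change was -1.75 (SE 0.42). Ms4a6b passed the low count filter through the tumor-free libraries alone: its level reached the filter's minimum in all 3 of them and in 0 of the 4 tumor-bearing ones. The whole difference rests on few counts, 19 in 486964 with a tumor (95% Poisson interval 11.4 to 29.7) and 46 in 343709 without (33.7 to 61.4). Among 31-week mice alone the log2 fold change was -1.62 (SE 0.56), and the 23-week mice had 34.1 CPM (tumor-bearing) and 153 CPM (tumor-free).

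Ms4a6c had 2057, 1745, 1371 and 1521 CPM in tumor-bearing replicates 1 to 4 and 1605, 1766 and 1660 CPM in tumor-free replicates 1 to 3. The tumor-bearing values enclosed the tumor-free ones. The means were 1674 ± 298 CPM (SD, n = 4) and 1677 ± 81.6 CPM (SD, n = 3), with a log2 fold change of -0.02 (SE 0.18). The tumor-bearing group holds both the shallowest and the deepest library, which gave its highest and lowest CPM. The ratio of Ms4a6c to Ms4a6b counts was 150, 41.5, 27.1 and 44.6 in tumor-bearing and 18.3, 11.6 and 10.8 in tumor-free replicates.

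**Figure D4:**
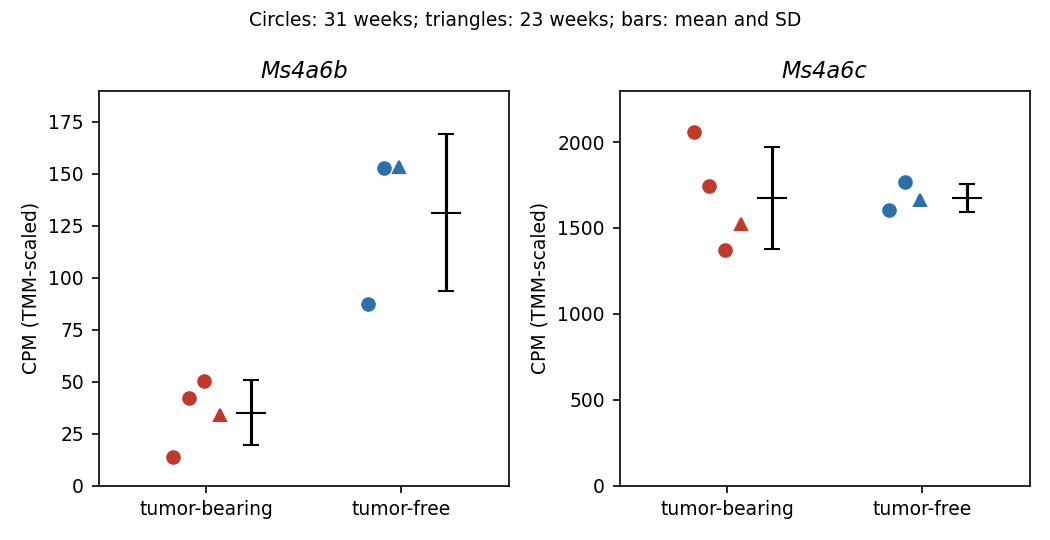
TMM-scaled CPM of Ms4a6b and Ms4a6c by group (circles: 31-week mice; triangles: 23-week mice; bars: mean and SD, n = 4 and 3). Ms4a6b is at most 50.6 CPM with and at least 87.5 CPM without a tumor, while the Ms4a6c groups overlap.

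Ms4a4c lay on the other side from Ms4a6b, with 52.7 ± 18.2 CPM (SD, n = 4) with and 31.5 ± 15.8 CPM (SD, n = 3) without a tumor, and the groups overlapped. Its pooled counts, 26 against 11, gave a ratio of 1.67 with an exact 95% counting interval of 0.797 to 3.74, and the fit without a low count filter a log2 fold change of 0.74 (SE 0.61). For Ms4a4b, with 4 against 3 counts, the ratio was 0.941 with an interval of 0.159 to 6.42, so no difference was detectable at this depth. Ms4a4d (2 against 3 counts), Ms4a6d (1 against 0) and Ms4a7 (0 against 0) were too sparse for a ratio. Ms4a15 ranged from 126 to 192 CPM in tumor-bearing and from 121 to 255 CPM in tumor-free libraries (log2 fold change -0.07, SE 0.32).

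**Figure D5:**
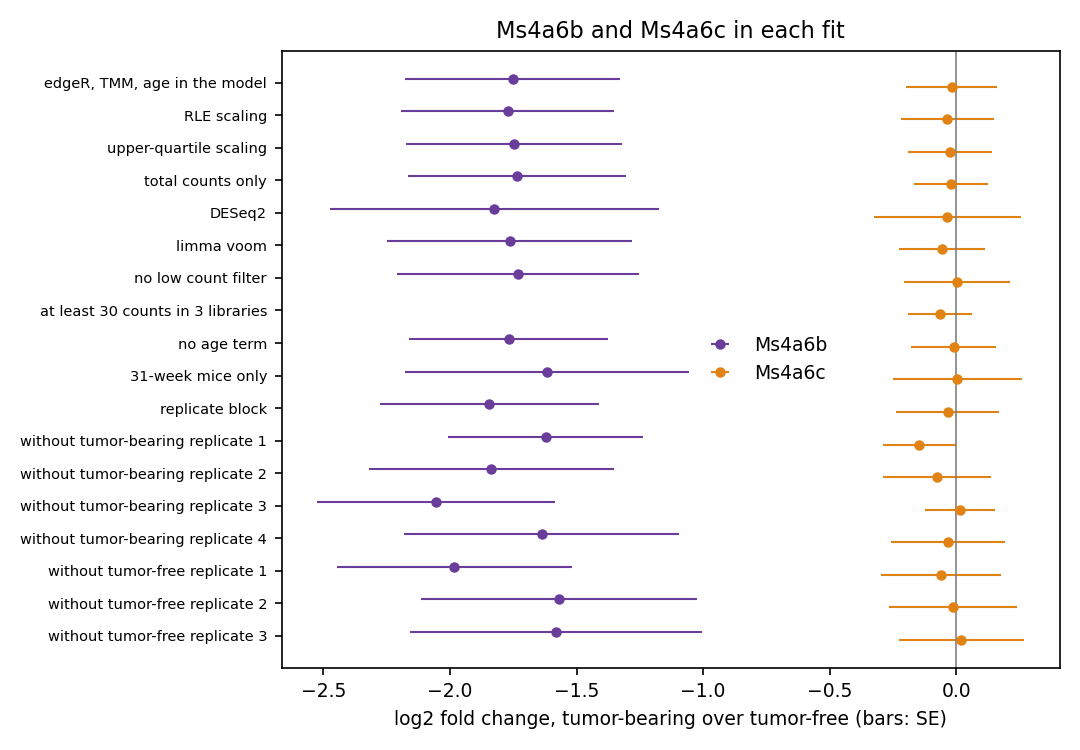
Log2 fold change of Ms4a6b (purple) and Ms4a6c (orange) with its SE in each fit, named at the left; fits that drop a library, age or use the replicate block keep the genes of the full set for Ms4a6b where the filter would remove it. Ms4a6b stays between -2.06 and -1.57 and Ms4a6c between -0.15 and 0.02.

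The 5 tested and named genes whose log2 CPM followed Ms4a6b most closely over the 7 libraries were Kdm5c (Pearson r = 0.94), Tasor2 (0.94), Adra2b (0.91), the interferon-induced gene Rsad2 (0.90) and Ap1s3 (0.89). For Ms4a6c they were Pclo (0.97), Zfp937 (0.97), AY074887 (0.96), Zyg11b (0.95) and the chemokine receptor gene Cxcr2 (0.94). Several of the latter are highly counted too, with 188 to 254 counts for Zfp937, 143 to 229 for Cxcr2 and 96 to 152 for Zyg11b, and all libraries share their depth across these genes. These correlations are descriptions over 7 libraries, chosen as the highest among the genes tested. They span both groups, and Ms4a6b was chosen for its group difference. The 5 genes most like Ms4a6b were all lower with a tumor too (log2 fold change -0.90 to -0.36). Rsad2 had only 3 to 14 counts per library.

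Of 16 genes that work with MS4A proteins, 8 had 0 counts in all libraries, where 43.8% of all gene IDs did. These were Trem2, the lipid receptor that MS4A4A accompanies in macrophages, its adaptor Tyrobp, the Fc receptor genes Fcer1g, Fcer1a and Fcgr3, Tnfrsf18, which encodes the costimulator GITR, the complement receptor gene Vsig4 and the inflammasome gene Nlrp3. Another 6 (Fcgr1, Fcgr2b, Fcgr4, Syk, Il1b and Grn) had at most 2 counts in a library. The remaining 2 passed the filter and 0 were called. Clec7a, the beta-glucan receptor dectin-1, stood at 87.4 ± 25.3 CPM (SD, n = 4) in tumor-bearing and 66.6 ± 15.9 CPM (SD, n = 3) in tumor-free mice (log2 fold change 0.42, SE 0.39). Cd274, which encodes PD-L1, had 138 ± 21.1 against 138 ± 27.8 CPM (0.01, SE 0.27).

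Markers of the cells in which MS4A genes are usually found were uneven. Of 20 monocyte and macrophage markers, 10 were at 0 in all libraries, where 43.8% of all gene IDs were. Among them were Lyz2, Cd14, Cd68, Adgre1, Aif1 and the 3 C1q genes. The 4 that passed the low count filter were Cx3cr1, Itgam (19 to 45 counts), Cd163 (18 to 45) and Csf1r (8 to 24). The summed level of the list was 1733 to 2304 CPM with and 1868 to 2119 CPM without a tumor, so the groups overlapped; Cx3cr1, with 106 to 199 counts, made up most of it. Of 14 T cell markers Cd2, Lck, Thy1 and Foxp3 were at 0 and the sum was 865 to 2394 CPM with and 681 to 1146 CPM without a tumor. Icos had 227 of its 260 tumor-bearing counts in replicate 4, and without Icos the sums were 730 to 919 CPM and 661 to 1087 CPM. Cd3d (16 to 34 counts), Cd3g (5 to 43) and Cd8b1 (32 to 65) were counted in every library. By contrast Cd3e had at most 1 count in a library, Cd8a at most 4, and Cd4, Cd28 and Il7r at most 3. The CD45 gene Ptprc, whose product was gated out, had 0 to 2 counts. The B cell list summed to 652 to 1309 CPM with and 632 to 755 CPM without a tumor. Its members Cd79a, Cd79b and Pax5 were at 0, while Fcer2a had 49 to 95 counts and Cr2 9 to 137 counts, the highest in tumor-bearing replicate 3. The mast cell markers Kit, Cpa3, Fcer1a, Mcpt8 and Hdc were at 0. The sums of the monocyte and macrophage, T cell, B cell and mast cell lists each overlapped between the groups. A sum that rests mostly on 1 gene, such as Cx3cr1, cannot show a change in the others. The osteoclast list did not overlap between groups, with 56.2 to 68.6 CPM with and 17.0 to 48.4 CPM without a tumor. The groups of every other list overlapped. Single genes tested were arranged this way in 2.2% of cases, but this is a sum of 6 genes, of which 0 passed the filter. Each gene of this list had at most 10 counts in a library. Atp6v0d2 made up most of the mean sum, 43.4 of 62.3 CPM with and 25.4 of 28.3 CPM without a tumor. Dcstamp and Calcr were at 0. The 12 osteoblast markers summed to 1135 to 1673 CPM with and 1483 to 2539 CPM without a tumor. Col1a1 (23 to 96 counts) and Sparc (14 to 70) were counted in every library, but the osteocalcin genes Bglap and Bglap2 had at most 2 counts, as had Sp7 and Dmp1. The part of any of these cell types in the Ms4a counts was not tested.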

How the data were processed

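RNA of sorted osteoblasts was measured in 1 library per mouse (4 with a tumor, 3 without). Per the labels' protocols the RNA was made into 3′-end libraries by a custom CelSeq protocol that adds a molecular identifier. TopHat2 2.0.10, SAMtools and mm10 are named in the submitters' processing notes. No source used here gives the counting program, its strand setting, the treatment of reads matching several genes or whether identifiers were collapsed. The authors deposited raw counts (whole numbers) for each Entrez gene ID, with no normalization. Totals were 77127 to 169774 counts. Each library is a separate mouse, so p-values measure the spread between mice.

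Gene IDs were named through RefSeq (GRCm38.p6), which matched 23666 of 23725. Genes were filtered with filterByExpr (minimum count 10, minimum total 15), scaled by TMM and tested with glmQLFit and glmQLFTest of edgeR 4.0.16 in R 4.3.3, with age as a factor and Benjamini-Hochberg adjustment over all genes tested at 0.05. SE was taken from the log2 fold change and its F statistic. CPM use TMM-scaled total counts. Alternatives used DESeq2 1.42.0, limma 3.58.1 voom, other scalings and filters, a model without age, the 31-week mice alone, the replicate block and each library left out. The fit was tested on simulated data. Depth relations used exact permutation tests over all orders of the 7 libraries (SciPy 1.17.1). Transcript features came from the longest coding transcript per symbol of GENCODE vM21 (GRCm38), promoters from RefSeq.

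An allele of the mice and a marker gene are not reported here. The members, lists and tests were chosen with earlier results of these data known. Named genes were the members, the MS4A family, the neighbours on the chromosome, lists of partners and cell markers, and the 5 genes most correlated with Ms4a6b and with Ms4a6c. Fits that keep the genes of the 7-library fit were added after seeing the data, as were the depth relations in 31-week mice and the T cell sum without Icos.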

Additional observations from a re-analysis of the deposited data

Results flagged for a closer look

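Among the 4 tumor-bearing libraries, 8 MS4A family genes were checked for a library far from the others. A gene with counts in only 1 of these libraries meets this rule whatever its count. The usual rate by chance, about 1 of 20 groups, thus does not hold for sparse genes. The rule was met by Ms4a6d in tumor-bearing replicate 2, at 10.5 CPM against 0 CPM in the other 3 libraries. That value is a single count, within the 3 counts that a count of 0 allows.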

How the results depend on the processing

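edgeR called 0 genes and so did each alternative fit, with the replicate block too (0 genes; 8 higher and 29 lower at an unadjusted p under 0.05). The log2 fold change of Ms4a6b lay between -1.82 and -1.73 over the other scalings, filters and tests. It lay between -2.06 and -1.57 with 1 library left out. Without the age term it was -1.77, with 31-week mice only -1.62 and under the replicate block -1.85. Same-numbered mice did not deviate together (correlations of deviations -0.20, -0.12 and -0.12 for replicates 1 to 3), so the numbers were not taken as pairs. Replicate 3 was 31 weeks old with a tumor and 23 weeks without, so the numbers do not follow the age match. The replicate block left out tumor-bearing replicate 4, the 23-week mouse. Litter is not given per mouse and was in no model, so this check cannot speak to the litter match. With a filter of at least 30 counts in 3 libraries Ms4a6b could not be tested. Its value with the replicate block, with 31-week mice only and without tumor-bearing replicate 3 or 4 or tumor-free replicate 2 or 3 comes from fits that kept the genes of the 7-library fit. The log2 fold change of Ms4a6c lay between -0.06 and 0.00 and, with 1 library left out, between -0.15 and 0.02, with a sign that turned in several fits (-0.03 under the replicate block). Mean levels without 1 library were 63.5 to 86.7 CPM for Ms4a6b and 1611 to 1726 CPM for Ms4a6c. The relation of Ms4a6c CPM to depth lost its call without tumor-bearing replicates 1 and 3 (r = -0.51, exact permutation p = 0.4333 over 5 libraries). Depth limits Ms4a4b, Ms4a4d, Ms4a6d and Ms4a7, each at 3 counts or fewer in every library.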
